A study of Mus musculus with 8 samples.

Results

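The Hedgehog pathway of the uterus and the nuclear receptor gene Nr2f2 were read out in RNA of uterine stromal cells from mice labelled Erbb3f/f and Erbb3d/d. The 9 genes were taken by symbol: Ihh, Ptch1, Smo, Sufu, Gli1, Gli2, Gli3, Hhip and Nr2f2. All 9 were among the 23420 symbols of the count tables, and all 9 had enough reads to enter the test across genes. Each genotype had 4 libraries, all labelled day 3, with 8578575 to 12854367 reads assigned to genes per library. By common mouse usage, f stands for a floxed Erbb3 allele and d for that allele once Cre has cut it. The labels name no Cre line, no strain and no age, do not say from which event the day is counted, and do not say whether the libraries of a genotype came from separate animals, so a p-value here measures the spread between these libraries, which may be in part technical.

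In Hedgehog signalling a secreted ligand binds the receptor Patched and relieves its block on Smoothened, a transmembrane protein that then acts at the primary cilium to turn the GLI transcription factors from repressors into activators. In the uterus the ligand is Indian hedgehog, made by the epithelium in response to progesterone, and the responding cells lie in the stroma beneath it. The stromal response includes Ptch1, Gli1 and Hhip, which are direct readouts of the pathway in many tissues, and Nr2f2, which encodes the orphan nuclear receptor COUP-TFII and is needed for the stroma to restrain oestrogen action in the epithelium and to decidualize.

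The targeted gene was examined first. Erbb3, a receptor tyrosine kinase gene, had 9.63 ± 2.24 CPM (the CPM scale: reads of a gene relative to all reads in genes, with library sizes scaled by edgeR's TMM; SD, n = 4) in the libraries labelled Erbb3f/f and 13.9 ± 4.55 CPM (SD, n = 4) in those labelled Erbb3d/d. It was not lower under the Erbb3d/d label, and these gene totals hold no reading of single exons, so they cannot check a deletion. Every direction given here therefore follows the labels alone. Erbb3d/d replicates 3 and 4 lay farthest from the other libraries on the first principal component, at 36.2 and 44.9, while Erbb3d/d replicate 2, at -18.2, lay within the range of the Erbb3f/f libraries, -29.7 to -3.31. Values without these libraries are given for each member. Each library was left out in turn, but replicate 2 is singled out here for its place among the Erbb3f/f libraries. Fits without it were thus picked with the data seen and are no separate support for a difference.

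The comparison asked whether stromal Hedgehog signalling and its target Nr2f2 differ when Erbb3 is targeted. The log2 fold change, Erbb3d/d over Erbb3f/f, was below 0 for 9 of 9 members, with a median of -0.32, against 52% of the 14598 tested genes and a median of -0.01 over them. By edgeR's quasi-likelihood test with Benjamini-Hochberg adjustment no member passed the 0.05 threshold, where 0% of all tested genes passed. At an unadjusted p under 0.05, Gli2, Hhip and Nr2f2 were lower in Erbb3d/d, 3 of 9, where 4.97% of all genes were, and DESeq2 called 0 of the 9 where it called 0.381% of all genes lower. Leaving out Erbb3d/d replicate 2 let 1.75% of all genes pass edgeR's adjusted threshold, 0.785% lower, and still 0 of the 9. The genotypes lay apart for 1 of 9 members, Gli2, and for 5.05% of all genes. In 7 of 9 members at least 3 Erbb3d/d libraries lay below every Erbb3f/f library, a pattern shown by 12.4% of all tested genes. The members were chosen with earlier results of these data known, so these counts describe the 9 genes and do not test them as a set.

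**Figure D1:**
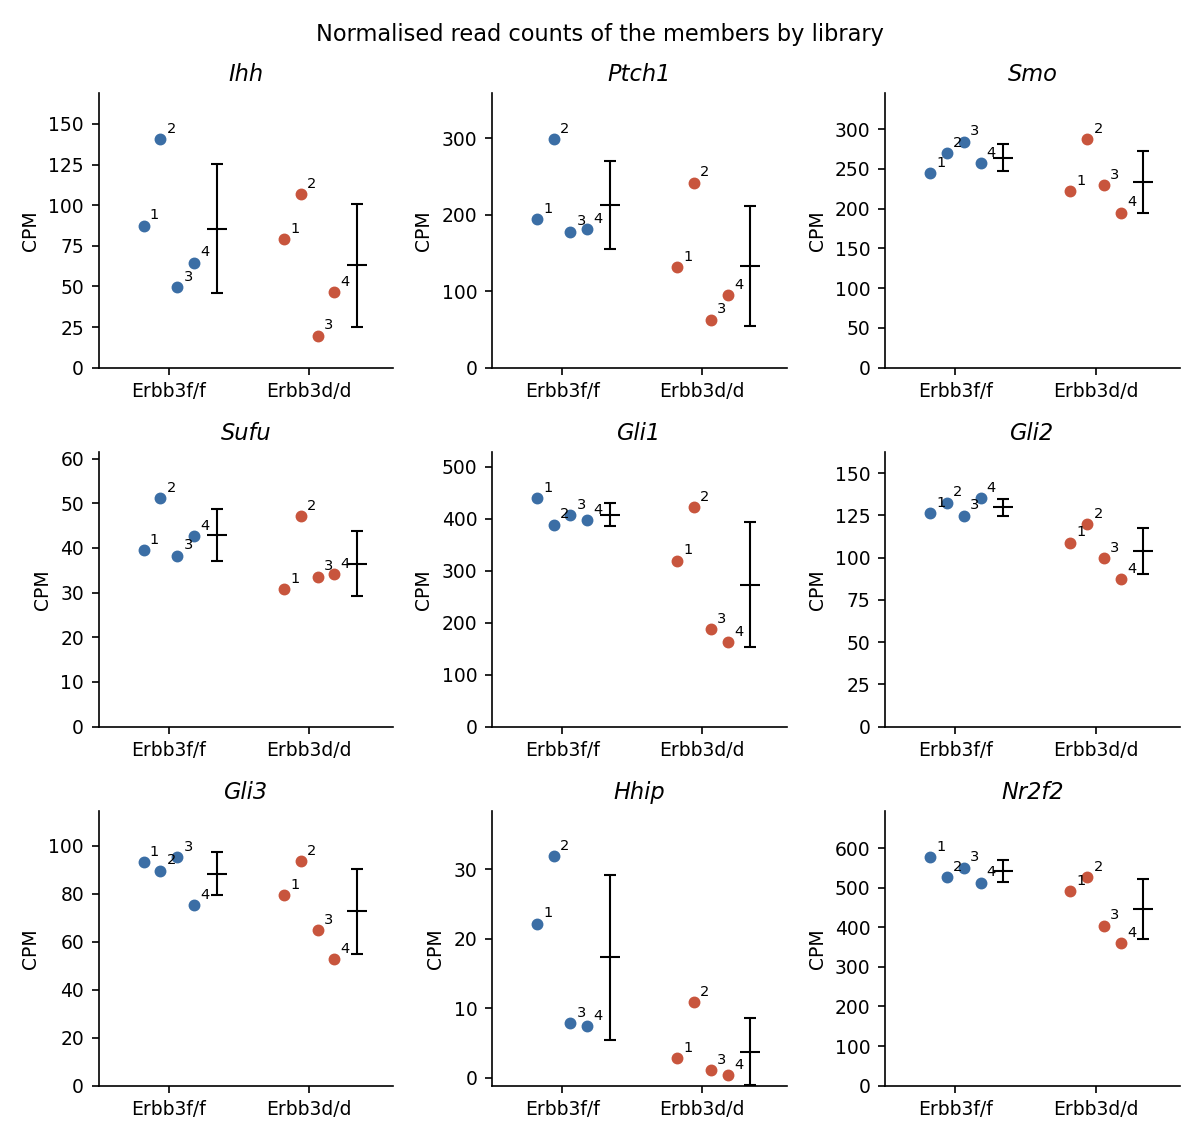
Normalised read counts (CPM) of the 9 members, 1 point per library, numbered by replicate, with the mean and SD (n = 4) of each genotype to the right of its points. Erbb3d/d replicate 2 sat within or near the Erbb3f/f values in most panels, and Erbb3d/d replicates 3 and 4 were the lowest for Ptch1, Gli1, Gli2, Gli3, Hhip and Nr2f2.

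The libraries were labelled stromal cells, and stromal transcripts were abundant in all of them: 12 general stromal transcripts, among them Vim, Col1a1 and Pdgfra, summed to between 17051 and 30991 CPM per library. Epithelial RNA was present as well. The 15 epithelial markers were all detected and summed to between 1042 and 1672 CPM in Erbb3f/f and between 1602 and 2609 CPM in Erbb3d/d, with 13 of 15 markers higher in Erbb3d/d. The 10 smooth muscle markers summed to between 1276 and 2350 CPM in Erbb3f/f and between 1994 and 4649 CPM in Erbb3d/d, with 9 of 10 higher. The 8 endothelial markers ranged from 224 to 456 CPM in Erbb3f/f and from 226 to 474 CPM in Erbb3d/d, and 7 immune markers from 894 to 2282 CPM and from 1275 to 1617 CPM. None of these markers was at 0 in every library. In such bulk samples, fewer cells of a type and less RNA per cell cannot be told apart.

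Per kilobase of annotated exon, the members spanned a wide range of levels in Erbb3f/f. Gli1, the transcription factor gene that is itself induced by the pathway, stood highest at 81.6 ± 4.46 CPM per kb (SD, n = 4), and Nr2f2 followed at 62.8 ± 3.27 and Smo at 47.0 ± 3.00 CPM per kb. Ihh was next at 28.1 ± 13.1 CPM per kb, with a range that overlapped those of its neighbours Smo and Gli2. Gli2 had 18.9 ± 0.712 CPM per kb and Ptch1 15.02 ± 4.07, and these 2 ranges overlapped too. Gli3, at 9.21 ± 0.936, Sufu, at 5.58 ± 0.754, and Hhip, at 1.91 ± 1.31 CPM per kb, followed without overlap between neighbours. In Erbb3d/d the means of Gli1 and Nr2f2 were close, at 54.7 ± 24.2 and 51.7 ± 8.86 CPM per kb.

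Ihh, the epithelial ligand, is a minus-strand gene of chromosome 1 (74945315 to 74951672 in GRCm38), with 3 exons. Its level was 87.4, 141, 49.5 and 64.6 CPM across Erbb3f/f replicates 1 to 4 and 79.1, 107, 19.8 and 46.6 CPM across Erbb3d/d replicates 1 to 4. The genotypes overlapped widely, and the SD of each was large beside the difference between the means, 85.5 ± 39.9 against 63.1 ± 37.9 CPM (SD, n = 4 each). On the log2 scale the fold change was -0.44 (SE 0.49; edgeR adjusted p = 0.765) and p = 0.4 in an exact permutation test. Without Erbb3f/f replicate 2, the highest library, it was -0.09, without Erbb3d/d replicate 2 it was -0.82, and without Erbb3d/d replicates 3 and 4 together it was 0.12. Of the other ligands, Shh had 0 reads in all 8 libraries, which allows up to 0.235 to 0.350 CPM depending on the library (3 reads, for counting error only), and Dhh, the ligand best known from testis and nerve, had 1 to 19 reads per library.

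Because Ihh is made by epithelium, its level was also set against the epithelial markers within each library. The log2 difference between Ihh and the mean of the 15 markers was 0.27, 1.15, 0.06 and -0.26 across Erbb3f/f replicates 1 to 4, and 0.03, 0.43, -2.51 and -1.37 across Erbb3d/d replicates 1 to 4. Erbb3d/d replicates 3 and 4 were the lowest libraries by this measure although they held the most epithelial marker reads, 2559 and 2609 CPM, while replicates 1 and 2 fell inside the Erbb3f/f range. The markers did not all move together. Foxa2 had 8.37, 15.9, 4.08 and 3.95 CPM across Erbb3f/f replicates 1 to 4. It had 6.09, 8.97, 2.83 and 4.82 CPM across Erbb3d/d replicates 1 to 4. Ihh was not tested against single markers. The difference of the means was -1.16, and an exact permutation test gave p = 0.229 (adjusted p = 0.381 over 4 such ratios). Without Erbb3d/d replicate 3 the difference was -0.61, and without Erbb3d/d replicate 2 it was -1.59.

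**Figure D2:**
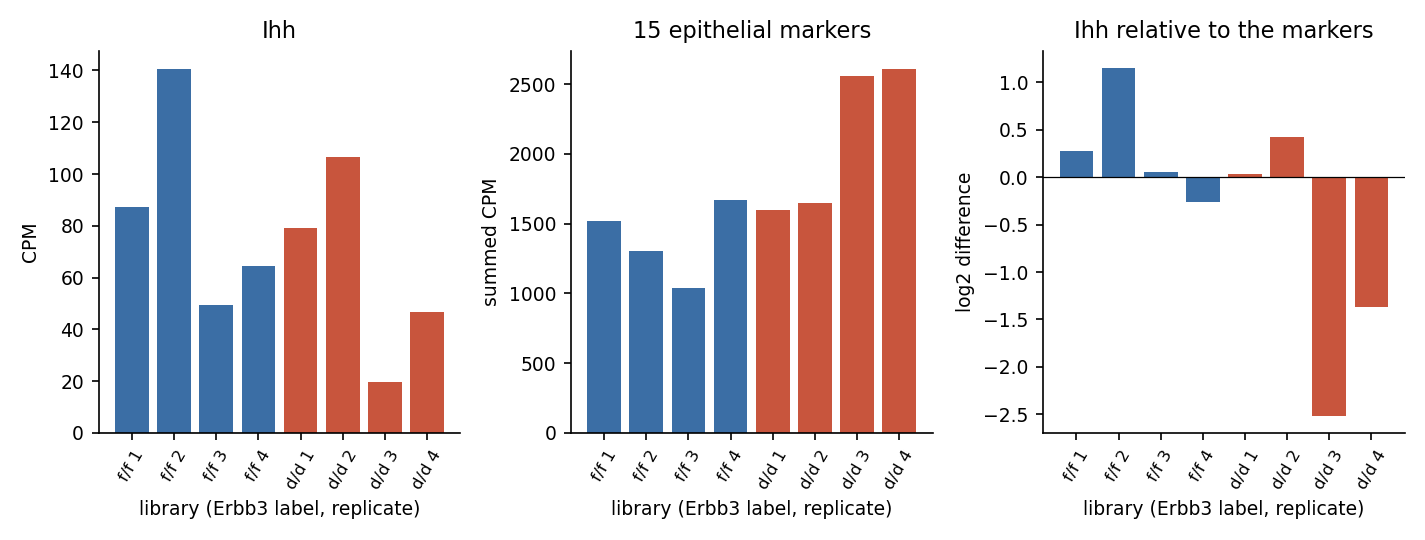
Ihh in CPM (left), the summed CPM of 15 epithelial markers (middle) and the log2 difference between Ihh and the mean of these markers (right), 1 bar per library, blue for Erbb3f/f and red for Erbb3d/d. In Erbb3d/d replicates 3 and 4 the markers reached 2559 and 2609 CPM while Ihh was 19.8 and 46.6 CPM.

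Genes placed above Ihh in the uterus had smaller point estimates than Ihh, and the difference was not tested. Of Pgr, Gata2, Sox17 and Arid1a, 0 of 4 passed the adjusted threshold, and 2 were lower and 2 higher. Pgr, the progesterone receptor gene and the strongest of the 4 by p, had 678 ± 75.1 CPM under Erbb3f/f and 544 ± 114 under Erbb3d/d (SD, n = 4 each), which is -0.32 on the log2 scale (SE 0.15) with edgeR adjusted p = 0.452. Among genes that make or release hedgehog ligands, 4 of 5 tested were lower and 0 passed. Disp1, which encodes the protein that releases lipid-bearing ligand from the cell, had the smallest p of these and was the one that was higher, at 29.5 ± 2.48 against 35.3 ± 4.54 CPM (SD, n = 4 each; log2 fold change 0.26, edgeR adjusted p = 0.464), with 3 Erbb3d/d libraries above every Erbb3f/f library. Hhat, which encodes the enzyme that palmitoylates the ligand, had 7.95 ± 0.486 CPM under Erbb3f/f and 6.07 ± 1.14 under Erbb3d/d (SD, n = 4 each), without overlap between the genotypes (2.48% of all genes were lower without overlap), and edgeR adjusted p = 0.510.

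Ptch1, the ligand's receptor and a direct target of the pathway, is a minus-strand gene of chromosome 13 (63508328 to 63573598). It had 194, 299, 178 and 181 CPM across Erbb3f/f replicates 1 to 4 and 132, 242, 63.0 and 94.8 CPM across Erbb3d/d replicates 1 to 4. Erbb3d/d replicates 1, 3 and 4 lay below all 4 Erbb3f/f libraries, and replicate 2 lay above 3 of them. The log2 fold change was -0.68 (SE 0.38; edgeR adjusted p = 0.520) and p = 0.114 in an exact permutation test. Without Erbb3d/d replicate 2 the log2 fold change was -1.14 (edgeR adjusted p = 0.0760). Without Erbb3d/d replicates 3 and 4 it was -0.19 (edgeR adjusted p = 0.999).

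The coreceptors were measured as well. Cdon, which presents ligand to Patched, had a higher mean in Erbb3d/d, at 96.7 ± 8.13 against 121 ± 24.3 CPM (SD, n = 4 each; log2 fold change 0.33, adjusted p = 0.413 in edgeR's test). Its unadjusted p was 0.0411 by edgeR, where 6.64% of all genes were higher at an unadjusted p under 0.05. Erbb3d/d replicate 2, at 88.2 CPM, lay below every Erbb3f/f library, and the other Erbb3d/d libraries lay above them all. Boc and Gas1, which act with Cdon, had log2 fold changes of -0.18 (SE 0.23) and 0.06 (SE 0.18).

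Hhip encodes a membrane protein that binds and sequesters hedgehog ligands and is induced by the pathway as a brake. It is a minus-strand gene of chromosome 8 (79965851 to 80058006). Its reads numbered 228, 305, 100 and 66 across Erbb3f/f replicates 1 to 4 and 29, 93, 14 and 4 across Erbb3d/d replicates 1 to 4, which gave 22.2, 31.9, 7.85 and 7.45 CPM against 2.85, 10.8, 1.10 and 0.351 CPM. Erbb3d/d replicates 1, 3 and 4 were below all Erbb3f/f libraries, and replicate 2 was above the lower 2 of them. The Erbb3f/f libraries themselves fell into a higher pair and a lower pair, and the SD was 68.5% of the mean in Erbb3f/f and 127% in Erbb3d/d. Hhip had the largest point estimate of the 9 members, a log2 fold change of -2.25 (SE 0.88), 4.76-fold lower in Erbb3d/d, with an edgeR adjusted p = 0.389 (unadjusted 0.0318). It was -3.61 without Erbb3d/d replicate 2 (edgeR adjusted p = 0.0611) and -1.76 without Erbb3f/f replicate 2 (edgeR adjusted p = 0.623). Without Erbb3d/d replicates 3 and 4 it was -1.35 (edgeR adjusted p = 0.999). With the replicate number as a block, edgeR called Hhip (-2.66, adjusted p = 0.0456), where 0.356% of all genes were called and 0.0891% were called lower.

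Gli1, a minus-strand gene of chromosome 10 (127329882 to 127341974), encodes the GLI activator whose own transcription depends on pathway activity. The Erbb3f/f libraries were tight at 439, 389, 406 and 397 CPM, with an SD of 5.46% of the mean, and the Erbb3d/d libraries were spread at 319, 423, 188 and 163 CPM, with an SD of 44.2% of the mean. Erbb3d/d replicates 3 and 4 were less than the lowest Erbb3f/f library by a wide margin, replicate 1 by a smaller one, and replicate 2 exceeded 3 of the 4 Erbb3f/f libraries. The log2 fold change was -0.58 (SE 0.27), 1.49-fold lower in Erbb3d/d, with edgeR adjusted p = 0.452 and p = 0.114 in an exact permutation test. It was -0.86 without Erbb3d/d replicate 2 (edgeR adjusted p = 0.0681) and -0.13 without Erbb3d/d replicates 3 and 4 (edgeR adjusted p = 0.999). Exons of Gli1 overlap those of Arhgap9 on the other strand over 62 bp in the annotation, 1.24% of its exonic length, and the libraries were not stranded. They also overlap those of Gm47200 on the other strand over 265 bp, 5.31%, and that gene is not in the count tables. Gli3 and Hhip overlap exons on the other strand over 1.96% and 1.93% of their exonic lengths.

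Ptch1 followed Ihh from library to library, a relation that was examined after the values were seen. After adjustment the relation passed 0.05 for Hhip by Spearman's rho only, and for Gli1 by none of the measures. Over the 8 libraries, log2(CPM + 0.5) of Ptch1 and Ihh correlated with r = 0.91 (exact permutation test over 40320 pairings, p = 0.00159, adjusted p = 0.0127 over the 8 other members) and Spearman's rho = 0.93 (exact permutation p = 0.00223, adjusted p = 0.0179). After each genotype's mean was subtracted, r was 0.93 (exact permutation within genotypes, p = 0.00521, adjusted p = 0.0417). Without Erbb3f/f replicate 2 and Erbb3d/d replicate 3, the libraries farthest from the median of Ihh, r was 0.67 over 6 libraries (exact permutation, p = 0.140). Leaving out these 2 narrows the range of Ihh, and no other pair was left out for comparison. Whether the relation rests on them was therefore not tested. Hhip and Ihh gave r = 0.76 (exact permutation p = 0.0273, adjusted p = 0.109), rho = 0.86 (exact permutation p = 0.0107, adjusted p = 0.0429) and r = 0.62 without those 2 libraries; with genotype means subtracted r was 0.77 (exact permutation, adjusted p = 0.229). Gli1 and Ihh gave r = 0.71 (exact permutation p = 0.0503, adjusted p = 0.134), rho = 0.57 (exact permutation p = 0.151, adjusted p = 0.195) and r = 0.59 without those 2; with genotype means subtracted r was 0.68 (exact permutation, adjusted p = 0.361). For the remaining 5 members r ran from 0.44 for Smo to 0.66 for Sufu, with adjusted p-values of 0.140 to 0.284 in the same exact permutation test. The 8 points share their libraries and scaling, and cell makeup moved with them as given above; its part in the relation was not tested.

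**Figure D3:**
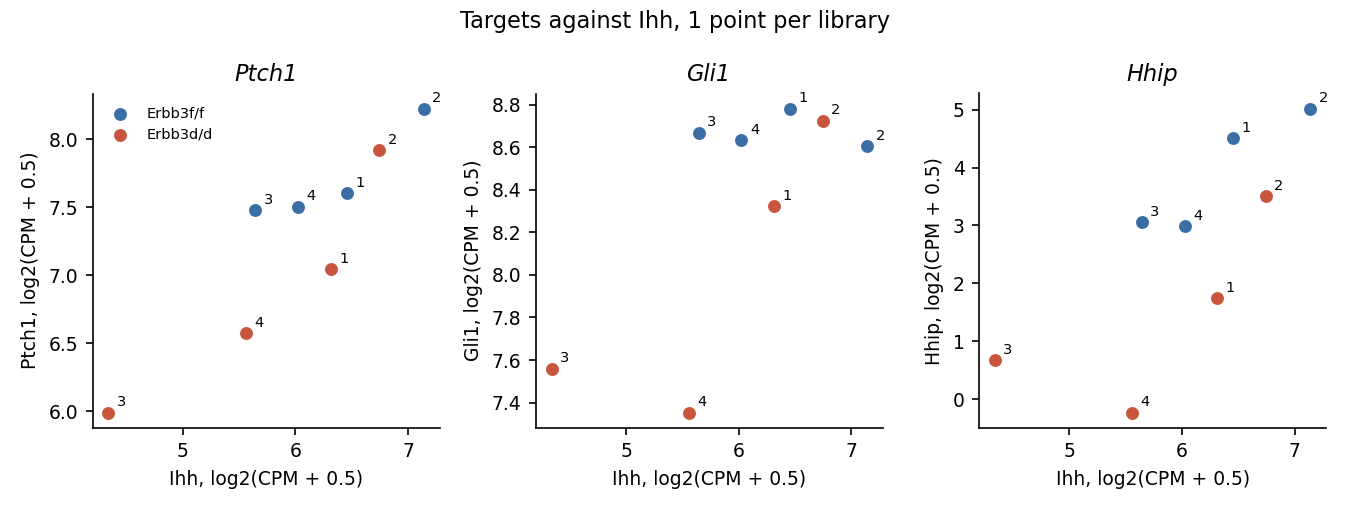
Ptch1 (left), Gli1 (middle) and Hhip (right) against Ihh, each as log2(CPM + 0.5), 1 point per library, numbered by replicate, blue for Erbb3f/f and red for Erbb3d/d. For Ptch1 the points rise with Ihh in both genotypes (r = 0.91 over 8 libraries). For Gli1 the 4 Erbb3f/f libraries sit at one level over their own range of Ihh, 49.5 to 141 CPM. Erbb3d/d replicates 3 and 4 lie below that range, at 19.8 and 46.6 CPM.

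Starts of the members are shown because Ptch1, Gli1 and Hhip are known to be switched on by GLI proteins, whose binding sequence is GACCACCCA. Windows of 300 bases, from 250 before to 50 after a gene start, were matched by symbol for 8 of the 9 members in RefSeq (GRCm38.p6). No window was matched for Gli1, so its start was not searched. They were searched on both strands for this 9-letter sequence and for ACCACCC, the 7-letter core that lies within it. The 9 letters were in 0 of the 8 windows, and in 0.253% of all 32851 windows of that length. The 7 letters were in 1 of the 8, that of Gli2, and in 4.61% of all windows. The windows printed are those of Ptch1 (chr13:63565686-63565985, minus strand) and Hhip (chr8:80057959-80058258, minus strand), the receptor and the inhibitor set against Ihh above. That of Gli2 (chr1:119053570-119053869, minus strand) is printed too, with the match in capitals. The window of Ptch1 is at a RefSeq start inside the gene's span given above.
Ptch1: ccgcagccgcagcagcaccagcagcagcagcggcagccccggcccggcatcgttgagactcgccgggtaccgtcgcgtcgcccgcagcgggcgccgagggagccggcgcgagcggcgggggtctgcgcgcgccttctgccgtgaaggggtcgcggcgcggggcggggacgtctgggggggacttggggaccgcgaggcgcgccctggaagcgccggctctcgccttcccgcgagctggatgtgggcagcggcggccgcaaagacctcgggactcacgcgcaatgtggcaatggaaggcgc
Hhip: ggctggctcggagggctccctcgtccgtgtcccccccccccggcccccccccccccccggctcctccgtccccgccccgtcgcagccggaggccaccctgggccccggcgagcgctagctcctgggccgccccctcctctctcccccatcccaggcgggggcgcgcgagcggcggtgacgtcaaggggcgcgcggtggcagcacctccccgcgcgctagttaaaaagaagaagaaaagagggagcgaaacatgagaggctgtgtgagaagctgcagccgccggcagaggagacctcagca
Gli2: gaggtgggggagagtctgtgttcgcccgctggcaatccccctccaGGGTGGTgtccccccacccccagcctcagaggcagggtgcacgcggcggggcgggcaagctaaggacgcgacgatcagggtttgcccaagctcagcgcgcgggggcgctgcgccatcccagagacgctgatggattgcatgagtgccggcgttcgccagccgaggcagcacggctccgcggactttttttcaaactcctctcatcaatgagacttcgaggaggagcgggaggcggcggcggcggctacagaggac
The match in Gli2 reads as the reverse complement of the core and begins 205 bases before the start. A match is a description of letters and not a site, and its absence says only that these letters are not in this window.

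The transducers stand between receptor and target. Smo, the signal-transducing membrane protein, lies on chromosome 6 at 29735503 to 29761365 and had 245, 269.95, 284 and 258 CPM across Erbb3f/f replicates 1 to 4 and 222, 287, 229.9 and 195 CPM across Erbb3d/d replicates 1 to 4. Its log2 fold change was -0.18 (SE 0.12; edgeR adjusted p = 0.581). Sufu, the cytoplasmic protein that holds GLI factors in check, lies on chromosome 19 at 46396896 to 46488804 and had 39.5, 51.2, 38.3 and 42.6 CPM against 30.8, 47.2, 33.6 and 34.2 CPM, a log2 fold change of -0.24 (SE 0.15). In both genes Erbb3d/d replicates 1, 3 and 4 lay below all Erbb3f/f libraries and replicate 2 did not. Without Erbb3d/d replicate 2 the log2 fold changes of Smo and Sufu were -0.29 and -0.38, and without Erbb3d/d replicates 3 and 4 they were -0.05 and -0.14. Leaving out Erbb3d/d replicate 4 alone gave -0.10 for Smo, and leaving out Erbb3f/f replicate 2 gave -0.13 for Sufu. The log2 difference between Ptch1 and Smo within a library was -0.34 ± 0.354 in Erbb3f/f and -0.97 ± 0.675 for Erbb3d/d (SD, n = 4 each; exact permutation p = 0.171, adjusted p = 0.381).

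Gli2, the main GLI activator upstream of Gli1, was the one member whose genotypes did not overlap. It is a minus-strand gene of chromosome 1 (118834132 to 119053619). Erbb3f/f replicates 1 to 4 had 126, 133, 125 and 135 CPM, and Erbb3d/d replicates 1 to 4 had 109, 119.9, 99.9 and 87.5 CPM. The gap was narrow, since the highest Erbb3d/d library, replicate 2, had 119.9 CPM and the lowest Erbb3f/f library 125 CPM. The log2 fold change was -0.32 (SE 0.10), 1.25-fold lower in Erbb3d/d, with an edgeR adjusted p = 0.311 (unadjusted 0.00999). An exact permutation test gave p = 0.0286, the smallest that 4 against 4 libraries can give. Groups lay apart in this direction for 2.48% of all tested genes. Without Erbb3d/d replicate 2 the log2 fold change was -0.39 (edgeR adjusted p = 0.0709). Without Erbb3d/d replicates 3 and 4 it was -0.18 (edgeR adjusted p = 0.999).

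Gli3, which encodes the main GLI repressor, is a plus-strand gene of chromosome 13 (15463235 to 15730026). It had 93.2, 89.6, 95.2 and 75.3 CPM across Erbb3f/f replicates 1 to 4 and 79.4, 93.6, 64.7 and 52.7 CPM across Erbb3d/d replicates 1 to 4. Erbb3d/d replicates 3 and 4 alone lay below the Erbb3f/f range. Gli3 had a log2 fold change that was -0.29 (SE 0.16; edgeR adjusted p = 0.525). It was -0.43 without Erbb3d/d replicate 2, -0.15 without replicate 4 and -0.03 without replicates 3 and 4. The log2 difference between Gli1 and Gli2 within a library, target against upstream activator, was 1.79, 1.55, 1.70 and 1.55 across Erbb3f/f replicates 1 to 4 and 1.55, 1.81, 0.91 and 0.89 across Erbb3d/d replicates 1 to 4. Erbb3d/d replicates 1 and 2 were at the Erbb3f/f level and replicates 3 and 4 were apart from it, and an exact permutation test gave p = 0.286 (adjusted p = 0.381).

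Other parts of the transduction machinery were read as lists. Of 10 genes of the cilium and of signal transduction 9 were lower in Erbb3d/d, with a median log2 fold change of -0.16 and 0 past the adjusted threshold. At an unadjusted p under 0.05, 2 were lower, where 4.97% of all genes were. They were Evc and Evc2, neighbouring genes whose products form a complex at the base of the cilium that relays the Smoothened signal. Evc2 had 83.9, 78.5, 68.9 and 73.9 CPM across Erbb3f/f replicates 1 to 4 and 67.0, 67.1, 43.1 and 35.2 CPM across Erbb3d/d replicates 1 to 4, without overlap, and edgeR adjusted p = 0.358. Evc had 55.2 ± 6.70 against 41.2 ± 9.07 CPM (SD, n = 4 each), with overlap and an adjusted p of 0.355. Genes that phosphorylate or degrade GLI proteins were nearly level, with 3 of 8 lower, a median log2 fold change of 0.04 and 0 past the threshold. Cul3, a ubiquitin ligase scaffold that acts on GLI proteins with Spop, was higher without overlap at 53.2 ± 1.89 against 58.5 ± 1.99 CPM (SD, n = 4 each; adjusted p = 0.553 in edgeR's test), where 2.57% of all genes were higher without overlap.

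**Figure D4:**
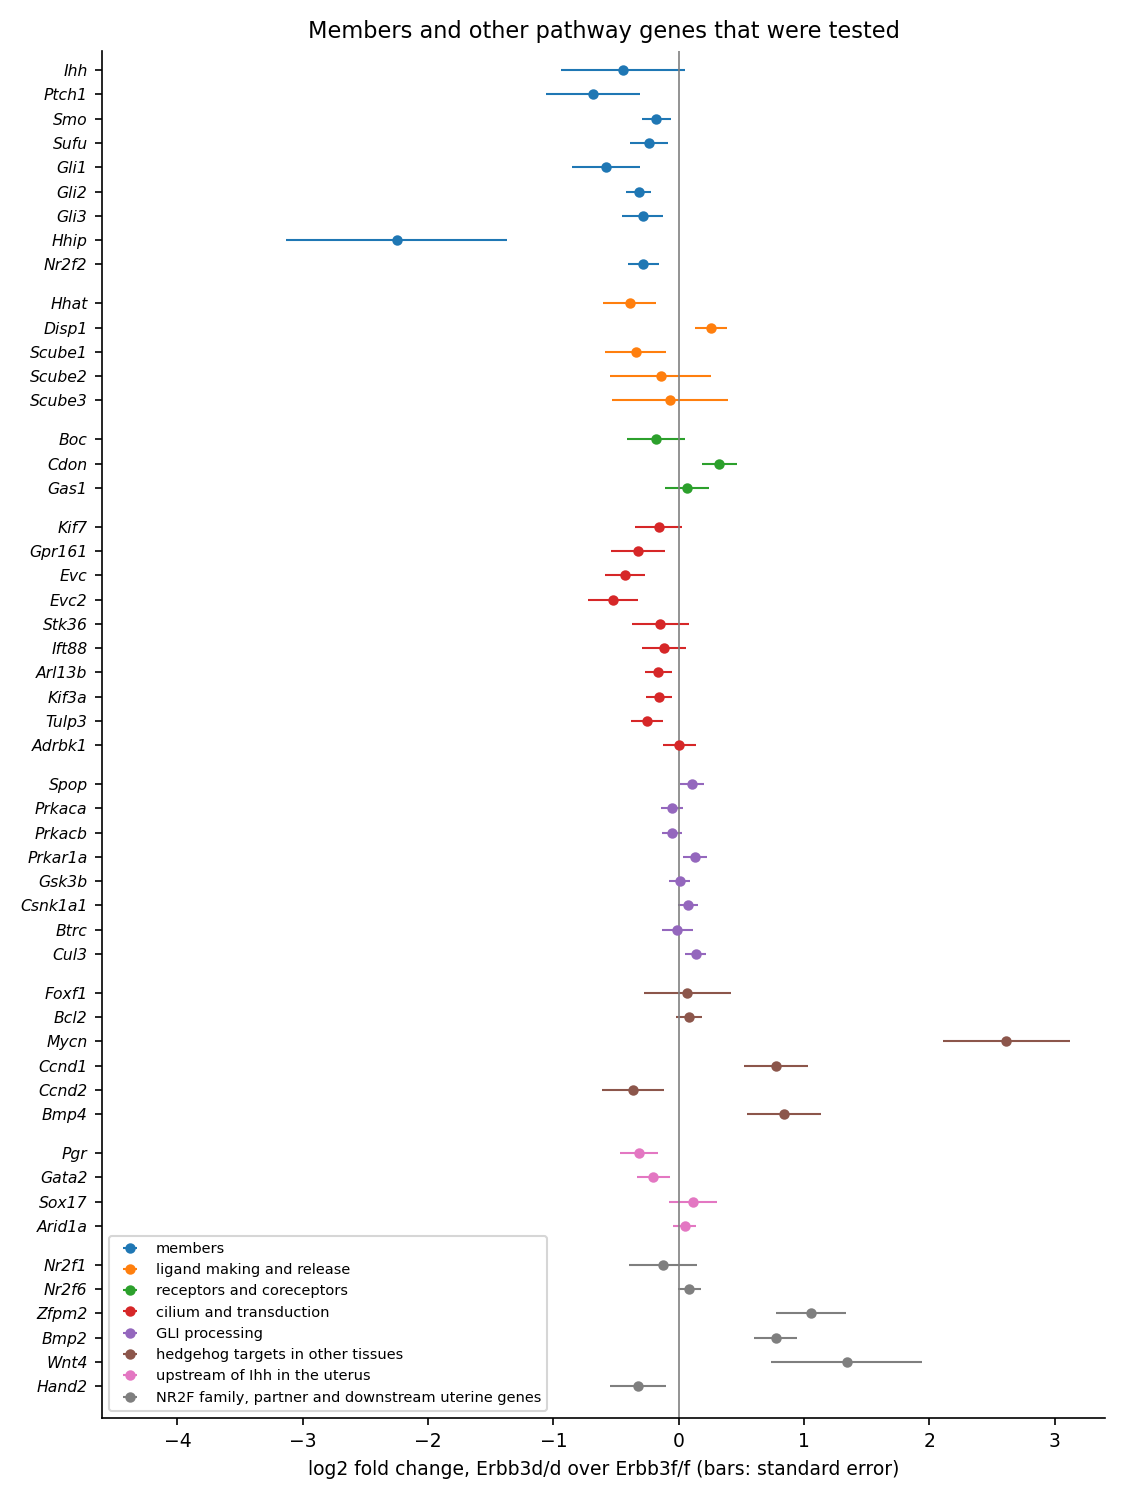
Log2 fold changes, Erbb3d/d over Erbb3f/f, of the 9 members and 42 other pathway genes that were tested, coloured by role, with bars of 1 standard error. All 9 members lie left of 0, and 22 of the 42 other genes do.

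Nr2f2, the most abundant member by reads, is a minus-strand gene of chromosome 7 (70351944 to 70366735). It had 577, 527, 551 and 513 CPM across Erbb3f/f replicates 1 to 4 and 492, 526, 404 and 361 CPM across Erbb3d/d replicates 1 to 4. Erbb3d/d replicates 1, 3 and 4 lay below all Erbb3f/f libraries, replicate 1 by little, and replicate 2 was level with Erbb3f/f replicate 2. The means were 542 ± 28.2 and 446 ± 76.4 CPM (SD, n = 4 each). This is a log2 difference of -0.28 (SE 0.12), with an edgeR adjusted p = 0.418 (unadjusted 0.0446). An exact permutation test gave p = 0.0571. It was -0.37 without Erbb3d/d replicate 2 and -0.09 without Erbb3d/d replicates 3 and 4. Exons of Nr2f2 overlap those of B130024G19Rik on the other strand over 643 bp, 7.46% of its exonic length, and that gene had 20.9 ± 6.07 CPM under Erbb3f/f and 15.3 ± 1.53 under Erbb3d/d (SD, n = 4 each).

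Set against the mean of the 12 general stromal transcripts within each library, Nr2f2 differed little between the genotypes. The log2 difference was -1.57 ± 0.199 in Erbb3f/f and -1.66 ± 0.135 for Erbb3d/d (SD, n = 4 each; exact permutation p = 0.486, adjusted p = 0.486). That list includes Pdgfra, Hoxa10 and Hoxa11, which were themselves lower in Erbb3d/d at an unadjusted p under 0.05, as was Vim, and 8 of its 12 genes were lower. Of the paralogs of Nr2f2, Nr2f1 had a log2 fold change of -0.12 (SE 0.27) and Nr2f6 of 0.09 (SE 0.09). With that SE, the change of Nr2f1 cannot be told apart from 0 or from that of Nr2f2.

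Genes that work with or after Nr2f2 in the uterus were read as a list. Of 6 such genes, its 2 paralogs included, 4 were higher in Erbb3d/d, 0 passed edgeR's adjusted threshold, and 2 were higher at an unadjusted p under 0.05, where 6.64% of all genes were. Bmp2, a secreted factor of the decidual response that lies after Ihh and Nr2f2, had 17.9, 13.7, 23.1 and 20.6 CPM across Erbb3f/f replicates 1 to 4 and 30.5, 27.97, 32.8 and 37.7 CPM across Erbb3d/d replicates 1 to 4. The groups lay apart, and adjusted p was 0.195 by edgeR, 0.00573 by DESeq2 and, once Erbb3d/d replicate 2 was left out, 0.0475 by edgeR. Zfpm2, which encodes FOG2, a cofactor that binds Nr2f2, had 10.7 ± 2.68 against 22.4 ± 8.35 CPM (SD, n = 4 each), with edgeR adjusted p = 0.278 and 0.0239 in DESeq2. Wnt4, a WNT ligand of both epithelium and decidua, had 117 ± 83.2 against 297 ± 173 CPM (SD, n = 4 each), or 1.34 on the log2 scale (SE 0.60), with edgeR adjusted p = 0.438. Hand2, a stromal transcription factor gene of the progesterone response, had 346, 260.2, 356 and 339 CPM across Erbb3f/f replicates 1 to 4 and 237, 389, 241 and 171 CPM across Erbb3d/d replicates 1 to 4. As for Nr2f2, Erbb3d/d replicates 1, 3 and 4 lay below all Erbb3f/f libraries, and replicate 2 was the highest of the 8. Its log2 fold change was -0.33 (SE 0.22; edgeR adjusted p = 0.598), and -0.58 without Erbb3d/d replicate 2 (adjusted p = 0.0724). DESeq2 called 1.78% of the genes it tested, in either direction.

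Genes that follow Hedgehog signalling in other tissues were read as a list too. Of 6 tested, 5 were higher in Erbb3d/d, with a median log2 fold change of 0.43, and 0 passed the adjusted threshold of edgeR. Mycn, a MYC family gene induced by the pathway in cerebellar progenitors, had 4.48, 5.23, 6.12 and 10.3 CPM across Erbb3f/f replicates 1 to 4 and 23.2, 14.1, 57.9 and 63.5 CPM across Erbb3d/d replicates 1 to 4. The groups lay apart, with Erbb3d/d replicates 3 and 4 highest, and the log2 fold change was 2.62 (SE 0.51; edgeR adjusted p = 0.183), 2.26e-06 by DESeq2 and, once Erbb3d/d replicate 2 was left out, 0.0182 by edgeR. Ccnd1, a cyclin of the G1 phase, had 120.3 ± 36.2 against 206 ± 59.8 CPM, and Bmp4, a secreted growth factor, 13.2 ± 4.04 against 23.7 ± 8.88 CPM (SD, n = 4 each), with adjusted p-values of 0.323 and 0.337 in edgeR's test.

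The fold changes of the members were smaller in size in a fit that held the epithelial markers, with SEs that were often larger than the estimates. With the mean of the epithelial markers as a covariate in edgeR's fit, the log2 fold change was -0.10 (SE 0.28) for Gli1 and -0.12 (SE 0.46) for Ptch1. It was -0.06 (SE 0.15) for Nr2f2 and -1.19 (SE 1.13) for Hhip. For Ihh, Smo and Gli3 it was 0.11 (SE 0.67), 0.03 (SE 0.15) and 0.09 (SE 0.17). Those of Gli2 and Sufu were -0.20 (SE 0.14) and -0.17 (SE 0.23). With the mean of the smooth muscle markers as the covariate, 9 of 9 members were below 0 and those of Ihh, Ptch1, Gli1 and Hhip were -1.14, -0.87, -0.65 and -2.69. Genotype and epithelial level overlap in these 8 libraries, since the libraries with the most epithelial RNA, Erbb3d/d replicates 3 and 4, are also those with the lowest targets, and the part of each cannot be told apart.

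**Figure D5:**
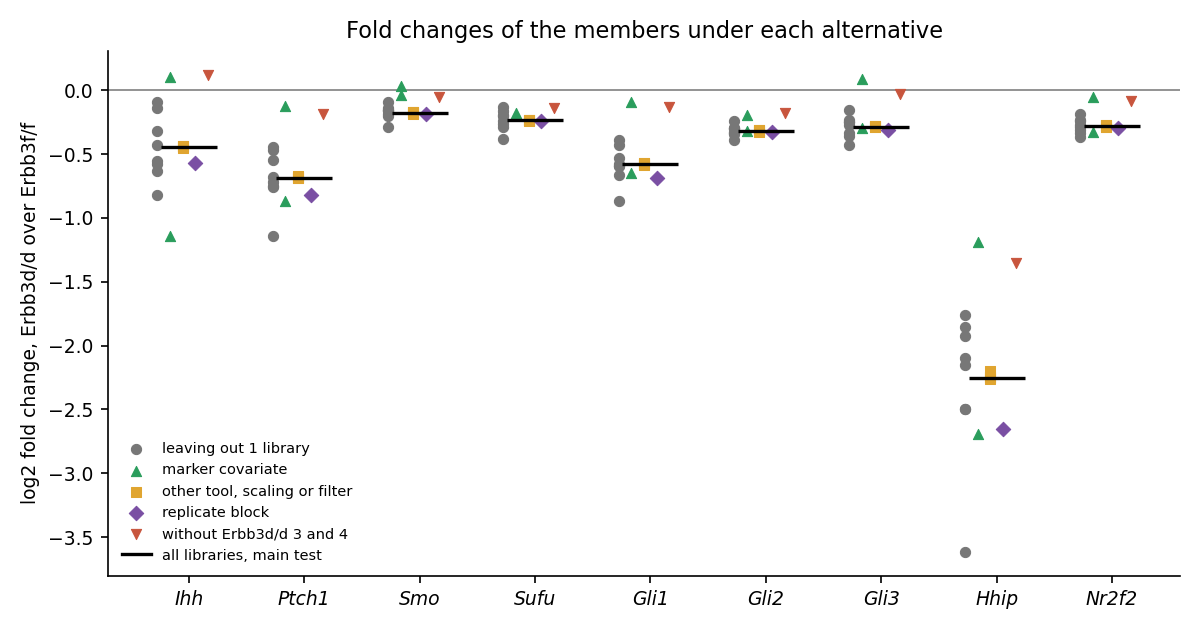
Log2 fold change of each member, Erbb3d/d over Erbb3f/f, with all libraries (black line) and under each alternative (symbols). Leaving out Erbb3d/d replicate 2 gave the lowest value of each member among the grey points, and the epithelial covariate or leaving out Erbb3d/d replicates 3 and 4 gave the highest value of every member except Sufu, whose highest came without Erbb3f/f replicate 2.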

How the data were processed

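Polyadenylated RNA from uterine stromal cells was sequenced as non-directional pairs of 150 bp, per the labels. The authors deposited 1 table of raw read counts per library, without normalization; HISAT2, SAMtools, HTSeq and StringTie and the build GRCm38 (mm10) are named in the submitters' processing notes, and the annotation and counting options are not given in the sources used here. The 5 closing lines of each table name no gene and were left out. Between 27.0% and 29.1% of all entries were assigned to genes, and between 48.3% and 50.8% fell in no feature. Between 0.147% and 0.166% were ambiguous. Libraries were grouped by their titles. Within genotypes, counts of each pair differed by more than sampling noise (chi-square per degree of freedom 13.5 to 35.2).

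The count tables were fitted with edgeR 4.0.16 under R 4.3.3 (filterByExpr, TMM, robust quasi-likelihood fit of genotype on all 8 libraries, Benjamini-Hochberg over 14598 genes, threshold 0.05); DESeq2 1.42.0 was an alternative, with other scalings, no filter, a replicate block, marker covariates and libraries left out. SE is the absolute log2 fold change over the root of the F statistic. On simulated counts for 14598 genes this test recovered 68% of genes changed by 1 and 92% of those changed by 2 on the log2 scale. Genes were drawn independently, without the split among the Erbb3d/d libraries, and changes under 1 were not simulated. All members but Hhip had estimates smaller than 1 in size, so these shares do not give the test's power for them. Single values were compared by two-sided exact permutation tests over 70 assignments on log2(CPM + 0.5). Positions and exonic lengths came from GENCODE vM21 (GRCm38), handled in pandas 2.3.3 under Python 3.11.15.

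The members, gene lists and tests were chosen with earlier results of these data known. All members are named; of the other lists, genes with an unadjusted p under 0.05, without overlap, or with the smallest p of their list, plus paralogs and coreceptors; 1 gene under this rule is not reported here. Hand2, Wnt4, Sox17, Gata2, Arid1a and Spop, outside this rule, were named after their values were seen.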

Additional observations from a re-analysis of the deposited data

Results flagged for a closer look

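Ptch1 in Erbb3f/f replicate 2 stood apart from its group, at 299 CPM where the nearest Erbb3f/f library had 194 CPM. The gap was 0.867 of the group's range, above Dixon's critical value for 4 samples. The same library had the highest Ihh and the highest Hhip of all 8, at 141 and 31.9 CPM. Of 26 groups of 4 values examined, this was the one flagged, where chance gives about 1 in 20, or 1.3. Without this library the log2 fold change of Ptch1 was -0.47.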

How the results depend on the processing

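All 9 members stayed below 0 in 15 of 17 alternatives, including each change of scaling or filter. With the epithelial covariate, Ihh (0.11), Smo (0.030) and Gli3 (0.087) turned above 0, and Ihh did (0.12) without Erbb3d/d replicates 3 and 4, an alternative chosen after seeing the data; in this fit Erbb3d/d has 2 libraries. Genes past the threshold numbered 0 in the main test, 270 with DESeq2 (58 lower), 52 with the replicate block (13 lower) and 0 to 259 when 1 library was left out, with 259 reached without Erbb3d/d replicate 2 and 0 without any other. At an unadjusted p under 0.05 there were 1695. The replicate block called 1 member, Hhip (-2.66, adjusted p = 0.0456), and no other alternative called any. With the block, Ihh was at -0.57 (SE 0.18), Ptch1 at -0.82 (SE 0.18) and Gli1 at -0.68 (SE 0.23). Their SEs in the main test were 0.49, 0.38 and 0.27. Members other than Hhip had adjusted p-values from 0.124 for Ptch1 to 0.431 for Smo in edgeR's test with the block. Same-numbered libraries correlated at 0.24, 0.17, 0.10 and 0.15 in their deviations from the genotype means, the third just under 0.1. Erbb3f/f replicates 1, 2 and 3 each correlated best with the Erbb3d/d library of their own number. Erbb3f/f replicate 4 correlated best with Erbb3d/d replicate 3, at 0.32. The numbers were not taken to pair the libraries in the main test, and these values do not settle whether they do. With 1 library left out, the log2 fold change ran from -0.82 to -0.09 for Ihh, -1.14 to -0.45 for Ptch1, -0.86 to -0.39 for Gli1 and -3.61 to -1.76 for Hhip. The 4 ratios kept their direction and side in all 11 alternatives each; without Erbb3d/d replicate 2, Gli1 to Gli2 was -0.53 and Ptch1 to Smo -0.87, each with adjusted p = 0.0571 in an exact permutation test, and over 4 pairs the smallest p possible is 0.125. Depth limits Hhip most, with 4 to 305 reads.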

Other observations

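The genes whose course over the 8 libraries was nearest to that of a member were listed by the root mean square difference of centred log2(CPM + 0.5), over 11037 genes with a mean of at least 10 CPM, as a description. For Ihh they were Gfra2, a receptor subunit gene for neurturin, at 0.29, Ptch1 at 0.34 and Mt2, a metallothionein gene, at 0.34, where Ihh itself had an SD of 0.81 over the libraries. Ptch1 was thus second of all genes compared. For Gli1 they were Hoxa11, a homeobox gene of the uterine stroma, at 0.07, 6030408B16Rik at 0.08 and Rcor2, a corepressor gene, at 0.09, and the nearest other member was Gli3 at 0.28, in place 205. For Nr2f2 they were Tmem161a at 0.04, Nlgn2 at 0.05 and Dgcr6 at 0.05, and the nearest other member was Gli2 at 0.09, in place 76. Small differences are easier to reach for a gene that varies little, as Nr2f2 did with an SD of 0.22.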
